A study of Homo sapiens with 8 samples.

Results

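The genes described here are the protein-coding human genes named ZNF plus a number that were well measured in these libraries. Their symbol is ZNF, a number and at most 1 further letter, and they were chosen by their mean count on the gene's strand, at least 40 over the 8 libraries. They number 162, out of 509 protein-coding genes with such a symbol and 8526 protein-coding genes with that mean. The remaining 8364 genes with that mean serve as the background throughout and are called the other genes.

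The cells were dTAG-NUDT21 HCT116, a human colorectal cancer line in which NUDT21 carries a degradation tag. NUDT21 is the subunit of cleavage factor Im that binds UGUA in RNA upstream of polyadenylation sites. The DMSO group (4 libraries, replicates 1 to 4) received DMSO, the solvent, with JTE-607, and the dTAGV1 group (4 libraries, replicates 1 to 4) received dTAGV1, a compound that directs tagged proteins to the proteasome, with JTE-607. Every library therefore came from cells given JTE-607, an inhibitor of CPSF73, the nuclease that cuts pre-mRNA at the polyadenylation site. The comparison shows what differed with dTAGV1 under that inhibitor, and nothing about cells without JTE-607. Doses, times and the number of clones are not given in the labels. The labels number the replicates but do not say that they were separate cultures, so p-values measure only the spread between these samples, which may be technical.

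The C2H2 zinc finger is a short fold in which 2 cysteines and 2 histidines hold a zinc ion, and arrays of such fingers read DNA or, in some proteins, RNA. Many human ZNF genes also encode a KRAB domain, which recruits the co-repressor TRIM28 and through it the histone methyltransferase SETDB1, best known for silencing transposable elements. KRAB zinc finger genes multiplied by tandem duplication and lie in clusters, most of them on chromosome 19.

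Each library held 8649238 to 9977205 reads, of which 3447842 to 4291256 were counted in genes. The 162 ZNF genes took 23219 to 29376 of those counts per library. Counts of NUDT21 itself were 104, 139, 131 and 129 in the DMSO libraries and 34, 29, 15 and 43 in the dTAGV1 libraries. The tag acts on the protein, but the RNA also fell by 1.95 on the log2 scale (adjusted p = 1.36e-09, edgeR's quasi-likelihood test with Benjamini-Hochberg adjustment). Of 9 colorectal epithelial markers, EPCAM, KRT8, KRT18, KRT19, CDH1 and CDX2 had counts in every library, CDX1 was at 0, and VIL1 and LGALS4 were at 3 counts or fewer. Their summed level was 1606 to 1837 CPM with DMSO and 1213 to 1322 CPM with dTAGV1. For the marker sums, CPM is counts per 1000000 counted reads of the library. For single genes below, CPM uses library sizes over the tested genes, scaled by edgeR's TMM factors. The list did not move as 1: KRT18 and KRT19 fell by 0.60 and 0.65 on the log2 scale, EPCAM rose by 0.28, and KRT8, CDH1 and CDX2 did not pass the test. Of 10 markers of immune, fibroblast, endothelial and liver cells, ALB and COL3A1 were at 0 in all libraries and COL1A1 had 37 to 73 counts. The 10 summed to 17.9 to 24.5 CPM with DMSO and 11.9 to 18.7 CPM with dTAGV1. The part of these marker differences in the ZNF results was not tested.

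The sequences that define the family are shown for 1 member that was higher with dTAGV1 and 1 that was lower. Only 2 fingers are shown of each, out of 13 matches in ZNF175 and 10 in ZNF770. Each stretch encodes 1 finger, with the codons of its 2 cysteines and 2 histidines in capitals. The 2 fingers shown of ZNF175 lie in exon 5 of 5, on the plus strand, at chr19:51587340-51587402 and chr19:51587424-51587486. Those of ZNF770 lie in exon 3 of 3, on the minus strand, at chr15:34983288-34983350 and chr15:34983204-34983266. Coordinates and sequence are from GENCODE 29 on GRCh38. The spacing of the capitals is alike in all 4 stretches, while the bases between them differ.
ZNF175 finger 1: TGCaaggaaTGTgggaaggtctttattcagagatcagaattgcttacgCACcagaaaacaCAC
ZNF175 finger 2: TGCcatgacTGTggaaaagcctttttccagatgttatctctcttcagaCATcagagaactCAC
ZNF770 finger 1: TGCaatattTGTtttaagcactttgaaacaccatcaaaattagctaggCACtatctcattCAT
ZNF770 finger 2: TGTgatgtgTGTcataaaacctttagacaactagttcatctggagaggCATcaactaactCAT

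Because NUDT21 binds UGUA, a TGTA near the annotated 3′ end is shown for 3 members that rose and 3 that fell. Each run is 30 bases of the last exon, 5′ to 3′ on the gene's strand, with every TGTA in capitals. They were placed on the TGTA nearest the end that left room for the run, within the last 100 bases of 1 transcript per gene. That TGTA began 81, 58 and 19 bases from the end in ZNF608, ZNF532 and ZNF561. In ZNF503, ZNF770 and ZNF367 it began 23, 100 and 47 bases from the end. The run of ZNF770 thus starts before the last 100 bases. ZNF608 is at chr5:124636981-124637010 (minus strand), ZNF532 at chr18:58986410-58986439 (plus strand) and ZNF561 at chr19:9607334-9607363 (minus strand). ZNF503 is at chr10:75397836-75397865, ZNF770 at chr15:34978424-34978453 and ZNF367 at chr9:96385971-96386000, all on the minus strand.
ZNF608, higher: attttaTGTAaaaTGTAtattgaatgcttt
ZNF532, higher: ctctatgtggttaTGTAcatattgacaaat
ZNF561, higher: gccaatgatggtaTGTAataaatacttcaa
ZNF503, lower: tccgtatatttgaTGTAttaaagggtttta
ZNF770, lower: taggggttataatTGTAagataaaaatgtg
ZNF367, lower: agaataaacatgcTGTAattttaaaagatg
The motif was present in members of either direction. Among the 157 members with enough annotated 3′ sequence, 56.7% held TGTA in the last 100 bases, on the gene's strand only, against 58.1% of 8021 other genes. It was held by 30 of 50 members that were higher and 12 of 21 that were lower. ZNF175, ZNF600, ZNF678 and ZNF383, which were higher, and ZNF584, which was lower, had no TGTA placed to give such a run. A match describes the letters and shows no binding, and the annotated end need not be the end used in these cells.

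With dTAGV1, 51 of the 162 ZNF genes rose and 22 fell at an adjusted p under 0.05, while 89 did not pass. The 73 called genes are 45.1% of the members, and the same test called 57.9% of all 12618 genes tested and 62.6% of the other genes. By direction, 31.5% of members were higher, against 31.0% of the other genes, and 13.6% were lower, against 31.5%. The share that rose was thus near the background, and the share that fell was the smaller one. The median log2 fold change was 0.11 over the members and -0.00 over the other genes. Scaled by library size alone, the medians were 0.0349 and -0.0767, and 43 members were higher and 27 lower. Changes above 2-fold were found for 8 members upward (4.94%) and 6 downward (3.70%), against 4.39% and 7.45% of the other genes and 7.35% and 9.23% of all genes tested. In either direction the share was 8.64% of members and 11.8% of the other genes. In bulk RNA, fewer cells of a type and less RNA per cell cannot be told apart. Reads came from 3′ ends and were counted per annotated gene, so rose and fell refer to these counts. Which 3′ ends were used was not tested.

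**Figure D1:**
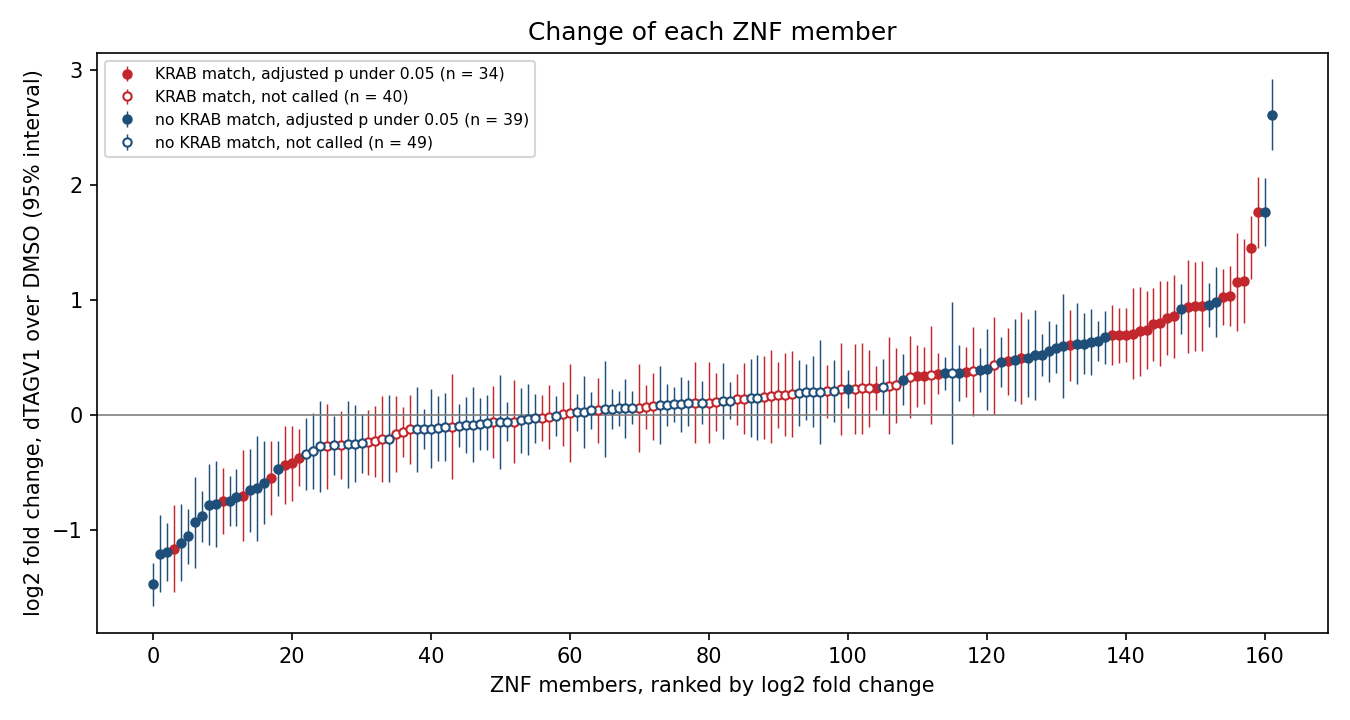
The log2 fold change of each of the 162 ZNF genes, dTAGV1 over DMSO, in order of size, with 95% intervals from the fit. Filled points have an adjusted p under 0.05 and colours separate members with and without a KRAB match. The curve runs from -1.47 to 2.61, and 103 of the estimates lie above 0.

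Values of all 4 DMSO libraries lay apart from all 4 dTAGV1 libraries in CPM for 62 members (38.3%), of which 42 were higher (25.9%) and 20 lower (12.3%) with dTAGV1. The corresponding share of the other genes was 55.7% (27.6% higher, 28.1% lower), and that of all genes tested 50.9%. ZNF genes were measured at lower counts than the other genes, with a median mean count of 89.6 against 181, which bears on how many can be called. Within mean counts of 40 to 80, 18 of 70 members were higher and 10 lower, against 22.6% and 33.7% of 1684 other genes. From 80 to 160, 17 of 45 members were higher and 5 lower, against 27.6% and 32.2% of 2120 other genes. At 160 and above, 16 of 47 were higher and 7 lower, against 35.7% and 30.4% of 4560 other genes. All 162 passed the filter on low counts, but 28 reached a mean of 40 in only 1 of the groups. Of those 28, 12 were higher and 8 lower, and a gene that enters through its higher group is bound to differ more. The 134 with a mean of at least 40 in each group held 39 higher and 14 lower genes (39.6% called). Of the 7815 other genes with that mean in each group, 61% were called, 31.5% higher and 29.5% lower.

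The member with the largest increase was ZNF608, a gene with 1 C2H2 match and the paralog of ZNF609. ZNF608 (ENSG00000168916, chr5:124636913-124748807, minus strand) had 14.2, 14.5, 10.7 and 7.67 CPM in the DMSO libraries and 64.1, 73.4, 66.3 and 83.0 CPM in the dTAGV1 libraries. The lowest dTAGV1 library stood far above the highest DMSO library. The log2 fold change was 2.61 ± 0.149 (SE), or 6.11-fold (adjusted p = 6.21e-13, edgeR's quasi-likelihood test with Benjamini-Hochberg adjustment). The gene overlaps ENSG00000251456 on its own strand, so that reads shared by both are not counted. ZNF609, known for a circular RNA made from 1 of its exons, did not pass the test: it had 166, 173, 170 and 182 CPM with DMSO and 178, 188, 186 and 153 CPM with dTAGV1. Its groups overlapped, and its log2 difference of 0.02 had a 95% interval from -0.14 to 0.18.

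ZNF532, ZNF592 and ZNF687 encode related proteins that bind the chromatin reader ZMYND8. ZNF532 (ENSG00000074657, chr18:58862600-58986480) had 10.4, 11.3, 8.80 and 11.4 CPM with DMSO and 36.6, 37.5, 33.6 and 35.5 CPM with dTAGV1. Libraries within each group lay close together and the groups did not overlap. The log2 fold change was 1.76 ± 0.142 (SE), 3.40-fold (adjusted p = 1.28e-10, edgeR with Benjamini-Hochberg adjustment). ZNF592 rose by 0.62 on the log2 scale: its DMSO libraries held 20.01 to 23.5 CPM and its dTAGV1 libraries 28.4 to 36.8 CPM, without overlap. ZNF687 had 21.3, 21.0, 24.5 and 23.5 CPM with DMSO and 25.8, 15.1, 29.8 and 29.1 CPM with dTAGV1. Its dTAGV1 replicate 2 was the lowest of the 8 libraries, and its log2 difference of 0.15 (95% interval -0.19 to 0.49) did not pass. ZNF592 and ZNF687 were chosen for naming after their values were seen, and whether the 3 genes differ from each other was not tested.

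Among KRAB zinc finger genes, ZNF175 had the largest increase. Its counts averaged 37.5 with DMSO, so it reached the mean of 40 only through the dTAGV1 group. ZNF175, also known as OTK18 and studied as a repressor of HIV-1 transcription in macrophages (ENSG00000105497, chr19:51571298-51592508), had 10.4, 7.48, 10.9 and 9.89 CPM with DMSO and 31.5, 31.4, 34.2 and 33.8 CPM with dTAGV1. Every dTAGV1 library stood near 3 times the DMSO level, and the groups did not overlap. Its log2 fold change was 1.76 ± 0.151 (SE), 3.39-fold (adjusted p = 3.93e-10, edgeR with Benjamini-Hochberg adjustment). ZNF600, with 18 finger matches (ENSG00000189190, chr19:52749942-52786807), had 16.7, 13.99, 15.5 and 19.3 CPM with DMSO and 42.5, 43.8, 41.2 and 51.3 CPM with dTAGV1. Its groups were also fully apart. The log2 fold change was 1.45 ± 0.133 (SE), 2.74-fold (adjusted p = 1.19e-09, edgeR with Benjamini-Hochberg adjustment).

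Further KRAB members changed by close to 2-fold. ZNF678 on chromosome 1 had 7.92, 6.99, 7.47 and 6.92 CPM with DMSO and 17.3, 15.4, 17.4 and 15.8 CPM with dTAGV1 (2.25-fold). ZNF383 on chromosome 19 had 7.38, 6.51, 11.2 and 5.93 CPM with DMSO and 14.5, 19.9, 14.1 and 20.1 CPM with dTAGV1 (2.23-fold). DMSO replicate 3 was the highest control for ZNF383 and still lay under every dTAGV1 library. ZNF561 on chromosome 19 had 16.1, 16.9, 17.9 and 17.6 CPM with DMSO and 34.0, 37.2, 35.1 and 34.1 CPM with dTAGV1 (2.05-fold). ZNF337 on chromosome 20 had 25.7, 24.4, 25.1 and 32.9 CPM with DMSO and 51.0, 50.7, 60.1 and 58.7 CPM with dTAGV1 (2.04-fold). In none of these 4 genes did the groups overlap. Their adjusted p-values ran from 5.79e-08 for ZNF337 to 3.83e-05 for ZNF383 (edgeR with Benjamini-Hochberg adjustment). In counts irrespective of strand ZNF337 kept under 1 in 100 of its reads (a ratio of 0.00655 to the stranded count), so its value rests on the strand being read.

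The remaining named increases have no KRAB match. ZNF711, an X-linked gene whose product acts with the demethylase PHF8 and which is mutated in intellectual disability, had 15.6, 15.4, 21.1 and 15.3 CPM with DMSO and 34.0, 33.5, 38.9 and 27.4 CPM with dTAGV1. ZNF292, first described as a regulator of the growth hormone gene, had 119, 98.6, 93.9 and 109 CPM with DMSO and 186, 180, 239 and 209 CPM with dTAGV1. The groups of both genes were apart. The log2 fold changes were 0.98 ± 0.147 (SE) for ZNF711 and 0.95 ± 0.0927 (SE) for ZNF292, with adjusted p = 3.17e-06 and 5.18e-09 (edgeR with Benjamini-Hochberg adjustment). ZNF292 is the only 1 of the 10 named increases with more than 100 CPM in any library.

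The largest decrease was that of ZNF503. ZNF503, or NOLZ1, is a transcriptional repressor with roles in development and holds no full C2H2 match (ENSG00000165655, chr10:75397830-75401906, minus strand). It had 133, 132, 153 and 141 CPM with DMSO and 43.1, 55.3, 50.1 and 52.98 CPM with dTAGV1. The highest dTAGV1 library was under the lowest DMSO library by a wide margin. The gene fell by 1.47 on the log2 scale (SE 0.0918), to a level 2.78-fold lower (adjusted p = 1.41e-12, edgeR with Benjamini-Hochberg adjustment). It overlaps ENSG00000270087 on its own strand. Its paralog ZNF703, a breast cancer oncogene, had 15, 23.9, 24.3 and 20.5 CPM with DMSO and 24.9, 12.7, 17.4 and 14.7 CPM with dTAGV1. Its groups overlapped and its log2 difference of -0.27 did not pass (95% interval -0.67 to 0.13).

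ZNF696 on chromosome 8, ZNF770 on chromosome 15 and ZNF584 on chromosome 19 followed, and their individual functions are little described. ZNF696 had 27.1, 20.3, 20.8 and 24.2 CPM with DMSO and 10.2, 10.9, 9.43 and 9.46 CPM with dTAGV1 (2.31-fold lower). ZNF770 had 73.5, 103, 97.1 and 104 CPM with DMSO and 38.3, 39.6, 35.6 and 50.8 CPM with dTAGV1 (2.28-fold lower). ZNF584, the only 1 of the 10 named decreases with a KRAB match, had 16.4, 13.7, 16.8 and 14.6 CPM with DMSO and 6.80, 6.65, 7.07 and 6.86 CPM with dTAGV1 (2.24-fold lower). In all 3 the groups were apart, and adjusted p-values were 7.18e-07, 1.81e-08 and 7.43e-06 in that order (edgeR with Benjamini-Hochberg adjustment). ZNF770 lost most of its reads when strand was ignored (a ratio of 0.312), and its log2 fold change was then -0.53 against -1.19, still past the threshold.

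ZNF367, described as an activator of globin genes in erythroid cells, had 33.3, 28.2, 32.3 and 26.0 CPM with DMSO and 11.6, 18.7, 10.9 and 14.2 CPM with dTAGV1 (2.16-fold lower). ZNF768, a protein that binds sequences within MIR transposable elements, had 93.7, 75, 76.0 and 74.9 CPM with DMSO and 46.8, 39.9, 35.9 and 31.7 CPM with dTAGV1 (2.08-fold lower). Neither gene's groups overlapped. ZNF385A, or HZF, a p53 target that steers p53 toward arrest genes, had 39.1, 25.6, 27.2 and 27.2 CPM with DMSO and 23.2, 19.6, 15 and 12.1 CPM with dTAGV1 (1.71-fold lower). Its groups came within 3 CPM of each other without overlapping. ZNF518B, a partner of the H3K9 methyltransferase EHMT2, had 98.9, 80.1, 72.6 and 85.6 CPM with DMSO and 53.3, 42.6, 45.4 and 41.9 CPM with dTAGV1 (1.84-fold lower). ZNF358 and ZNF511 were 1.91-fold and 1.72-fold lower. ZNF511 overlaps the read-through gene ZNF511-PRAP1, and ZNF358 and ZNF768 each overlap another gene on their strand, so these 3 values are less certain. Adjusted p-values of these 6 genes ran from 2.27e-08 for ZNF768 to 0.000922 for ZNF385A (edgeR with Benjamini-Hochberg adjustment).

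**Figure D2:**
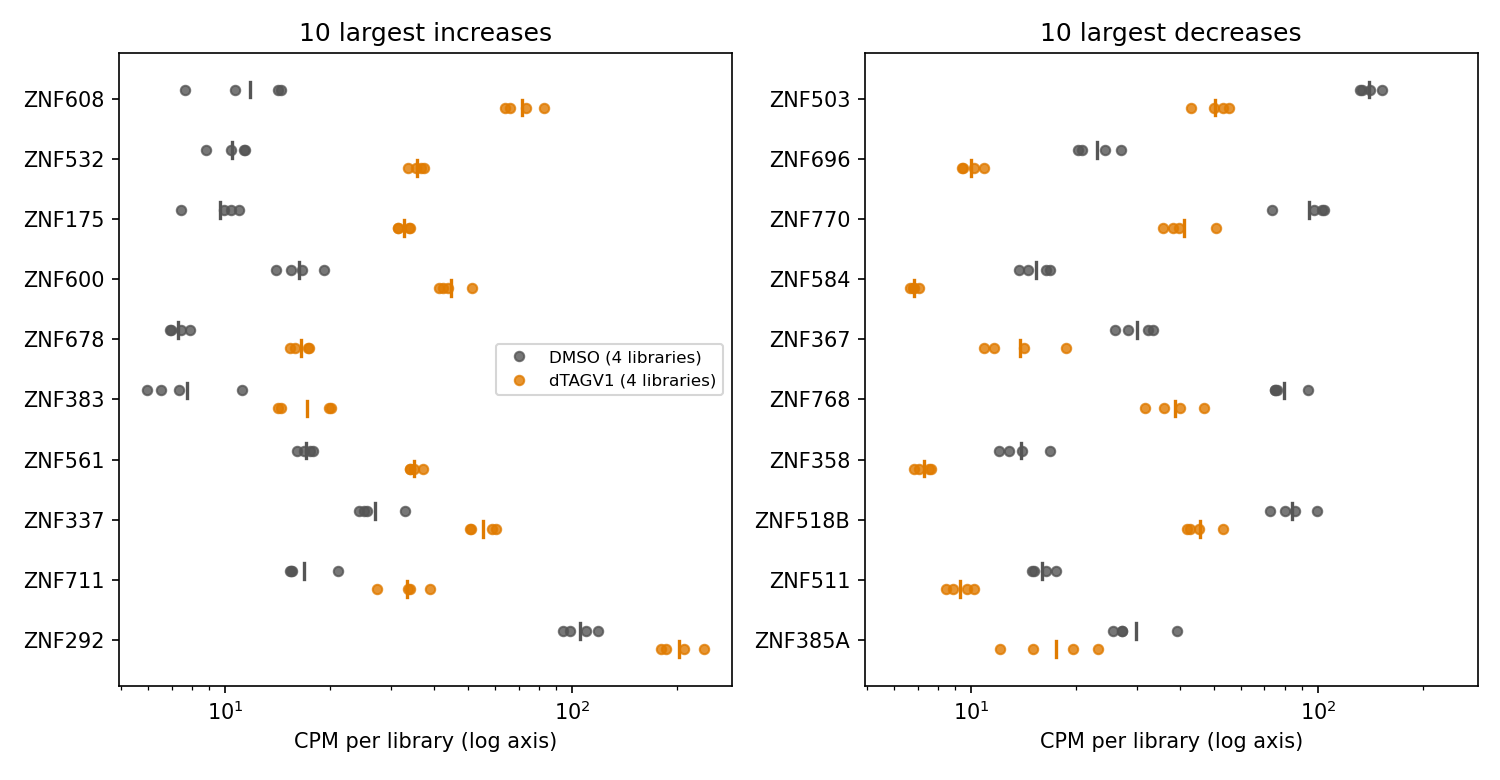
CPM per library on a log axis for the 10 largest increases (left) and the 10 largest decreases (right) among called ZNF genes whose groups do not overlap. Each point is 1 of 4 DMSO or 4 dTAGV1 libraries and each vertical bar is a group mean. ZNF608 shows the widest gap, from a highest DMSO value of 14.5 to a lowest dTAGV1 value of 64.1 CPM.

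Of the 5 most abundant members, ZNF106 and ZNF518A rose and ZNF638, ZNF24 and ZNF609 did not pass the test. ZNF638, an RNA-binding protein also known to silence unintegrated retroviral DNA with the HUSH complex, had 234, 237, 213 and 231 CPM with DMSO and 222, 217, 251 and 263 CPM with dTAGV1. ZNF24, a SCAN domain factor that represses VEGF, had 204, 228, 218 and 202 CPM with DMSO and 223, 219, 222 and 226 CPM with dTAGV1. The groups overlapped in both, and the 95% intervals of the log2 difference ran from -0.10 to 0.21 for ZNF638 and from -0.08 to 0.21 for ZNF24. ZNF106, an RNA-binding protein needed by motor neurons and muscle, had 203, 219, 222 and 201 CPM with DMSO and 278, 259, 271 and 279 CPM with dTAGV1. It rose by 0.36 ± 0.0693 (SE) on the log2 scale without overlap (adjusted p = 7.34e-05, edgeR with Benjamini-Hochberg adjustment). ZNF518A had 166, 159, 157 and 140 CPM with DMSO and 163, 201, 191 and 174 CPM with dTAGV1, so that dTAGV1 replicate 1 lay within the DMSO range. Its log2 difference of 0.23 passed (adjusted p = 0.0177, edgeR with Benjamini-Hochberg adjustment). Without DMSO replicate 4, dTAGV1 replicate 2 or dTAGV1 replicate 3 the adjusted p was 0.0983, 0.0983 or 0.0733, so that call rests on each of these libraries. Its paralog ZNF518B is among the decreases above, and the difference between the paralogs was not tested. Mean level over the members ran from 10.6 to 241 CPM, with a median of 23.8 CPM.

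Values of 7 further members with known roles follow, chosen after their values were seen, so that they stand for no group. ZNF473, a component of the U7 machinery that forms histone mRNA 3′ ends, had 10.1, 12.1, 9.60 and 9.15 CPM with DMSO and 14.5, 16.3, 16.2 and 16.1 CPM with dTAGV1. It rose by 0.62 ± 0.171 (SE) on the log2 scale, with groups apart (adjusted p = 0.00307, edgeR with Benjamini-Hochberg adjustment). ZNF143, an activator of small nuclear RNA and many messenger RNA promoters, rose by 0.63 from 16.7, 20.7, 18.7 and 19.3 CPM to 28.1, 35.0, 29.5 and 25.3 CPM. Its paralog ZNF76 went the other way, from 15, 13.5, 13.3 and 16.1 CPM to 9.35, 9.06, 10.9 and 9.22 CPM, a log2 fold change of -0.59. Neither gene's groups overlapped. ZNF644, a partner of the methyltransferases EHMT1 and EHMT2, rose by 0.52. ZNF207, or BuGZ, which loads the spindle checkpoint protein BUB3, had a log2 difference of -0.01 (95% interval -0.18 to 0.17). ZNF326, part of the DBIRD complex that links transcription and splicing, had 0.21 (-0.06 to 0.48), and ZNF445, a KRAB factor for genomic imprinting, had -0.26 (-0.55 to 0.04). None of these last 3 passed the test, and the intervals of ZNF326 and ZNF445 leave room for changes of some size.

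A KRAB A-box was found in the translated coding sequence of 74 members and not in 88, by a profile built from annotated human sequences. Of the 74 with a match, 27 rose and 7 fell (45.9% called), with a median log2 fold change of 0.22. Of the 88 without, 24 rose and 15 fell (44.3% called), with a median of 0.06. The called shares of both were below the 62.6% of the other genes. The KRAB members were measured at lower counts, with a median mean count of 68.7 against 130 without a match. Within mean counts of 40 to 80, 13 of 43 KRAB members were higher and 4 lower, against 5 higher and 6 lower of 27 without. From 80 to 160 the numbers were 9 and 3 of 21 against 8 and 2 of 24, and above 160 they were 5 and 0 of 10 against 11 and 7 of 37. Among the 27 KRAB increases, ZNF175, ZNF678, ZNF383, ZNF75A, ZNF596, ZNF304, ZNF44, ZNF26, ZNF611, ZNF875 and ZNF484 averaged under 40 counts with DMSO. They reached the mean of 40 only through the dTAGV1 group, and such genes are bound to differ more. All of these lie in the range of 40 to 80, so counts there depend on how members were chosen. The 28 members with that mean in 1 group only (12 higher, 8 lower) were not divided by KRAB match. No test of KRAB against the rest was made, since the members were chosen with results known.

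**Figure D3:**
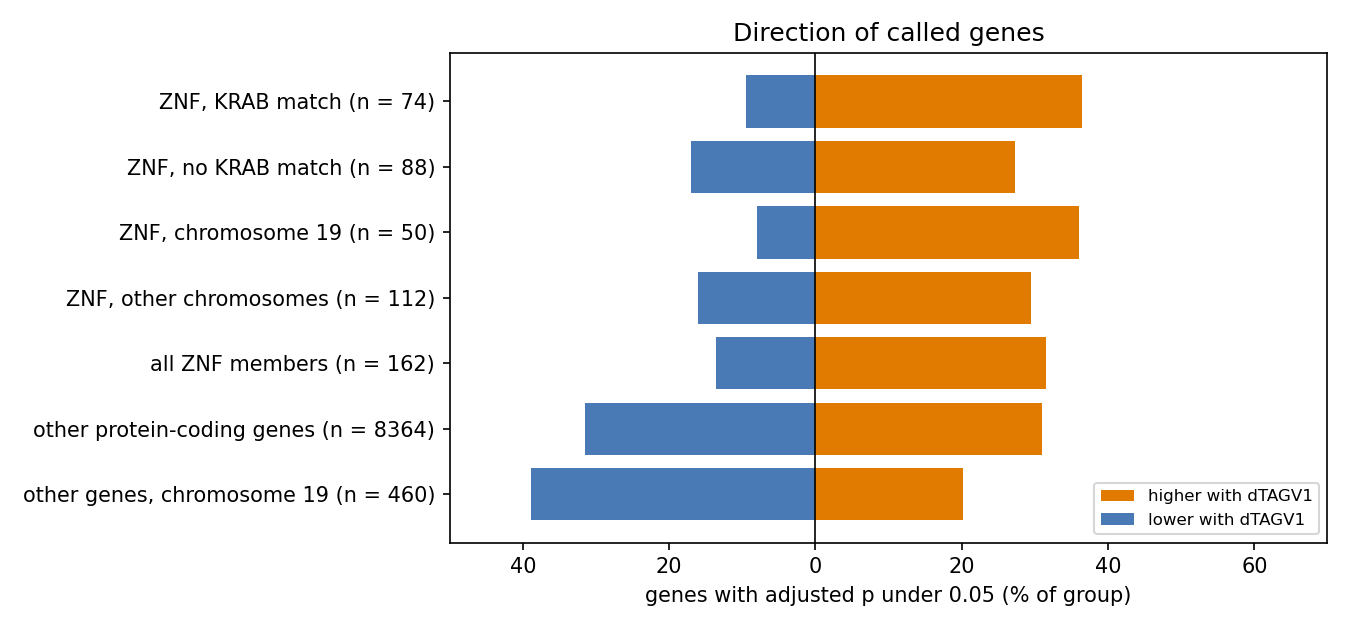
Share of each gene group called higher (right) or lower (left) with dTAGV1 at an adjusted p under 0.05, as percent of the group. KRAB-matched members reach 36.5% higher and 9.46% lower, and the other genes on chromosome 19 reach 20.2% higher and 38.9% lower.

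As a share of all counted reads, KRAB members summed to 0.171%, 0.173%, 0.163% and 0.178% in the DMSO libraries and 0.185%, 0.192%, 0.193% and 0.199% in the dTAGV1 libraries. Every dTAGV1 library was above every DMSO library. The KRAB sum includes the members named above that entered only through the dTAGV1 group. The means were 0.171% ± 0.00636 (SD, n = 4) and 0.192% ± 0.00557 (SD, n = 4). Members without a match summed to 0.486%, 0.486%, 0.467% and 0.480% with DMSO and 0.475%, 0.481%, 0.484% and 0.486% with dTAGV1, and those groups overlapped. All 162 members made up 0.651% ± 0.0138 (SD, n = 4) with DMSO and 0.674% ± 0.0100 (SD, n = 4) with dTAGV1. Taken library by library against the DMSO mean, the median member stood 0.11, 0.11, 0.13 and 0.13 log2 units higher in dTAGV1 replicates 1 to 4. For KRAB members the 4 medians were 0.19, 0.20, 0.22 and 0.27, and for those without a match 0.07, 0.02, 0.07 and 0.06. The corresponding medians of the other genes lay between -0.01 and 0.00.

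**Figure D4:**
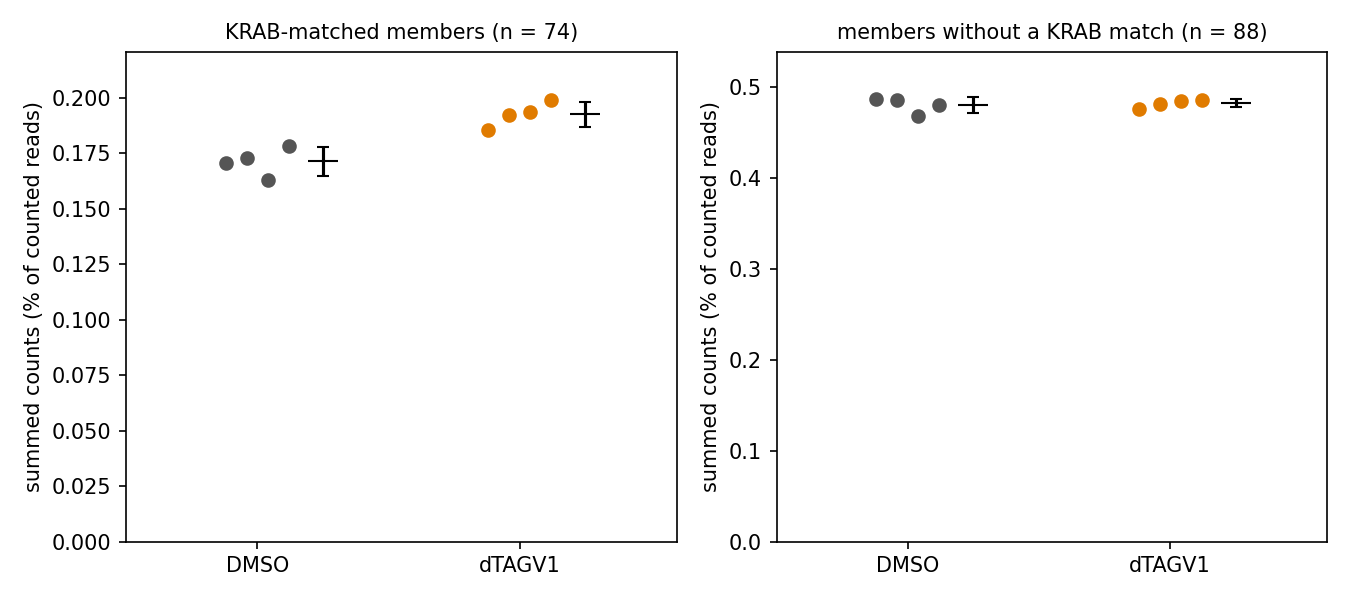
Summed counts of KRAB-matched members (left, n = 74) and members without a match (right, n = 88) as percent of the counted reads of each library, with the mean and SD beside the 4 points of each group. The left groups are apart, at 0.163% to 0.178% and 0.185% to 0.199%, while the right groups overlap.

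Chromosome 19 carried 50 members, of which 18 rose and 4 fell, with a median log2 fold change of 0.20. The 460 other genes on that chromosome showed 93 higher and 179 lower, with a median of -0.13. The 112 members elsewhere showed 33 higher and 18 lower, with a median of 0.09. The 33 KRAB members on chromosome 19 held 14 higher and 3 lower genes and a median of 0.34, and the 41 on other chromosomes held 13 and 4 and a median of 0.16. The 14 include ZNF175, ZNF383, ZNF304, ZNF44, ZNF611 and ZNF875, which entered only through the dTAGV1 group.

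Within chromosome 19, members were grouped into runs with gaps of at most 1000000 bases. The run at chr19:51571298-53458261 holds ZNF175, ZNF577, ZNF766, ZNF480, ZNF611, ZNF600, ZNF160 and ZNF761. All 8 estimates were above 0 and 4 passed (50%): ZNF175, ZNF600, ZNF611 (log2 fold change 0.73) and ZNF766 (0.70). Of the 460 other genes on chromosome 19, 59.1% were called (20.2% higher, 38.9% lower) and 172 estimates were above 0. ZNF175 and ZNF611 averaged 37.5 and 39.25 counts with DMSO and entered only through the dTAGV1 group. The run at chr19:57191500-58475436, with 8 members, held 3 higher and 1 lower (50% called), the last being ZNF584. A run of 5 at chr19:43596392-44237268 had 5 positive estimates and 2 calls (40%). A run of 2 at chr19:7069444-7521026, ZNF557 and ZNF358, had 2 decreases. Neighbours could differ: ZNF561 rose 2.05-fold, while ZNF562, in the same run at chr19:9641808-9675086, had a log2 difference of -0.15 that did not pass (95% interval -0.36 to 0.07). These runs were singled out after their values were seen.

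Elsewhere, chromosome 18 carried 7 members with 5 increases and no decrease: ZNF532, ZNF236 (0.58), ZNF407 (0.55), ZNF516 (0.48) and ZNF397 (0.46). ZNF24 and ZNF519 on the same chromosome did not pass. Of 124 other genes on chromosome 18, 48 were higher and 27 lower. Chromosome 7 held 14 members with 6 higher and 2 lower, beside 379 other genes with 121 higher and 117 lower. Chromosome 16 held 13 members with 4 higher and 3 lower, beside 348 other genes with 76 higher and 128 lower. These chromosomes, too, were picked after their values were seen.

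**Figure D5:**
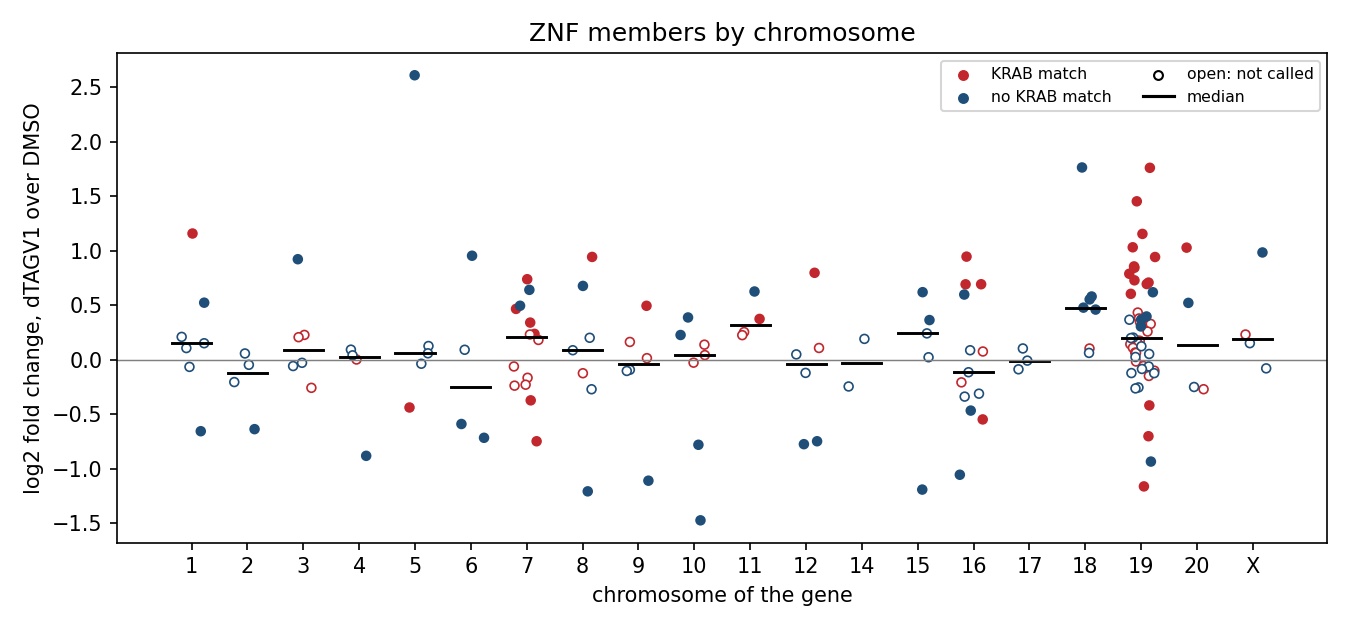
The log2 fold change of every ZNF gene by chromosome, with filled points for an adjusted p under 0.05, open points for genes not called and black bars for chromosome medians. Horizontal scatter within a chromosome carries no meaning. Chromosome 19 holds 50 points around a median of 0.20, and the 7 points of chromosome 18 all lie above 0.

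Members were also divided by finger number. Fingers were counted as matches to the C2H2 pattern in the translated coding sequence. With 0 to 3 matches, 4 of 25 members were higher (16%) and 6 lower. With 4 to 9 the counts were 18 (28.6%) and 10 of 63, with 10 to 14 they were 20 (44.4%) and 5 of 45, and with 15 or more they were 9 (31%) and 1 of 29. The other genes were higher in 31.0% and lower in 31.5%, so the share that rose was near that background in the classes of 4 to 9 and of 15 or more. Across the 162 genes, finger number and log2 fold change had a Spearman correlation of 0.24, and gene length also had 0.24. For finger number the value was 0.15 within KRAB members and 0.16 within the rest. For gene length it was 0.05 within KRAB members, 0.33 within the remaining members and 0.16 over the other genes. Genes share their libraries and are not replicates, so these describe the data only. Of the 54 shortest member genes, up to 20351 bases, 12 were higher and 13 lower. Of the next 54 and the 54 longest the counts were 19 and 5, and 20 and 4. In that order, 22.2%, 35.2% and 37% of members were higher and 24.1%, 9.26% and 7.41% lower. The 2644, 1907 and 3813 other genes of matching lengths showed 649 higher and 954 lower, 502 and 670, and 1445 and 1014. Their shares were 24.5%, 26.3% and 37.9% higher and 36.1%, 35.1% and 26.6% lower. The share that rose was thus near the background among the shortest and the longest genes. Base composition of the annotated 3′ untranslated region had a Spearman correlation of 0.23 with the log2 fold change for percent A and T, and 0.11 for TGTA per kilobase (n = 157 for both). The same values over 8021 other genes were 0.15 and 0.09.

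Promoters were read from RefSeq on GRCh38.p14, as 250 bases before to 50 after the gene's start, and 140 members were matched by symbol. ZNF175 and ZNF503 are printed because they are the KRAB gene with the largest increase and the member with the largest decrease. Capitals mark CCAAT or GGGCGG, or either one's reverse complement. The promoter of ZNF175 is at chr19:51571033-51571332 (plus strand) and that of ZNF503 at chr10:75401867-75402166 (minus strand).
ZNF175 promoter: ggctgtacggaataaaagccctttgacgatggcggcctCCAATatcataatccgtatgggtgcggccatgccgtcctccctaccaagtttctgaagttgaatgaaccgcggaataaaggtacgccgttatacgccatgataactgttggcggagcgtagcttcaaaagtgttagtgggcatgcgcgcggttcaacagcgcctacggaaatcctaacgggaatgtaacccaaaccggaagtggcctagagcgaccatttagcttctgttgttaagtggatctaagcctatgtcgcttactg
ZNF503 promoter: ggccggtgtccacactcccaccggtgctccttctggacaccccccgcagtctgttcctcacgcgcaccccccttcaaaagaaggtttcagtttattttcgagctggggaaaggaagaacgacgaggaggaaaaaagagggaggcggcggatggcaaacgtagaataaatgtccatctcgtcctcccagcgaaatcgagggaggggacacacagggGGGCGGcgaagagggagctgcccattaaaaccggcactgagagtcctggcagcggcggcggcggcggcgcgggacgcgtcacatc
ZNF175 holds 1 CCAAT and no GGGCGG, and ZNF503 holds 1 GGGCGG and no CCAAT. Searched on both strands, CCAAT was in 58.5% of 65 KRAB promoters, 28% of 75 promoters of members without a match, 37.4% of 6923 other genes and 34.6% of all 35116 promoters in the table. By direction it was in 46.7% of 45 members that rose and 31.6% of 19 that fell. GGGCGG was in 57.8% of those that rose, 89.5% of those that fell, 73.3% of the other genes and 45.0% of all promoters. A match is a description and not a bound site.

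Reads on the strand opposite to a member were frequent enough to test for 10 members. Of these, 4 passed (40%, 20% in each direction, against 50.7% of 972 other genes, 24.8% higher and 25.9% lower). They were opposite ZNF562 (log2 fold change 0.97), ZNF687 (0.37), ZNF48 (-0.84) and ZNF276 (-0.91). On its own strand ZNF276 was also lower, at -0.47, while ZNF562, ZNF687 and ZNF48 did not pass. Among 14 members with a neighbouring gene ending within 10000 bases upstream on their strand, 9 had an estimate of the same sign as that neighbour, against 624 of 1163 such pairs among the other genes. The Spearman correlation of both log2 fold changes was -0.64, an inverse order, over the 14 pairs and 0.06 over the 1163. Both values are descriptions across genes that share their libraries. On the gene's own strand, 57 members overlap another annotated gene. Of the 105 that do not, 35 rose and 12 fell.

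Close copies can also take reads from a gene. Over the last 400 bases of each member's transcript, 140 of 162 shared no 50-base word with another gene. ZNF324 shared 100% of them, so that its value (log2 difference 0.15, not called) is uncertain, and ZNF440, which was called higher, shared 16.2%.

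The proteins that act with KRAB zinc fingers, or on the silent chromatin they set up, were taken as a list of 27 genes, all of them tested. Of these, 6 rose (22.2%) and 14 fell (51.9%), with a median log2 fold change of -0.24. Among all genes tested, 29.4% rose and 28.5% fell. The called share was 74.1% of the list and 57.9% of all genes tested. The list was measured at higher counts, with a median mean count of 242 against 102, which bears on how many can be called. At mean counts of 160 and above, 66.1% of the other genes were called (35.7% higher, 30.4% lower). TRIM28, the co-repressor that binds the KRAB domain, had 133, 145, 156 and 158 CPM with DMSO and 116, 126, 108 and 82.5 CPM with dTAGV1. Its groups were apart, and it fell by 0.46 on the log2 scale (SE 0.101, adjusted p = 0.000494, edgeR with Benjamini-Hochberg adjustment). SETDB1, the H3K9 methyltransferase that TRIM28 brings in, had 34.4, 31.4, 33.4 and 37.1 CPM with DMSO and 36.8, 39.9, 33.9 and 38.1 CPM with dTAGV1. Its groups overlapped and its log2 difference of 0.13 did not pass (95% interval -0.10 to 0.36). ATF7IP, which stabilises SETDB1, and its relative ATF7IP2 were the largest increases, at 0.77 and 0.92. UHRF1 and DNMT1, which maintain DNA methylation at replication, were the largest decreases, at -1.63 and -1.01.

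Related families with the same mean count were read in the same fit. Beside 31.0% higher and 31.5% lower among the other genes, their numbers are small. Of 21 ZBTB genes, which pair fingers with a BTB domain, 5 were higher (23.8%) and 4 lower (19%). Of 6 ZSCAN genes, with a SCAN domain, 5 were higher and 1 lower, and of 4 ZKSCAN genes, with SCAN and KRAB domains, none was higher and 2 were lower. Of 8 ZFP genes 2 were higher and 2 lower, and of 9 KLF genes, a family with 3 fingers that binds GC-rich promoters, 4 were higher and 3 lower. The ZNF genes that passed the low count filter with a mean under 40 numbered 133, of which 30 were higher (22.6%) and 13 lower (9.77%), with a median of 0.13. All genes tested showed 29.4% higher and 28.5% lower.

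The 3 members just inside the mean of 40 counts were ZNF134 (40.1), ZNF358 (40.3) and ZNF551 (40.4), and the 3 genes just outside it were ZNF320 (39.5), ZNF808 (39.0) and ZNF777 (38.9).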

How the data were processed

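Messenger RNA 3′ ends were sequenced from Trizol-extracted RNA with Lexogen's forward QuantSeq kit, per the labels' protocols. The submitters' processing notes name FastQC, fastp, STAR, HTSeq, DESeq2 and GRCh38, without versions or roles. The deposited values are whole-number counts per gene in 3 columns: irrespective of strand, on the gene's strand and on the opposite strand. The second was used. The 4 totals of reads given to no gene, 56.7% to 62.8% of reads, were left out of library sizes and tests. Reads matching several genes or loci are not counted, and molecular identifiers are not given in the sources used here, so counting error understates the error.

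Of 78932 gene IDs, 61481 matched the table of names and 57356 matched GENCODE 29, whose coordinates are not stated to be the authors' annotation. Counts were fitted over all 8 libraries with edgeR 4.0.16 in R 4.3.3 (filterByExpr, TMM, robust quasi-likelihood F test), with group as the only term. Benjamini-Hochberg adjustment ran over 12618 genes, and called means an adjusted p under 0.05. CPM of single genes was computed on library sizes over the tested genes after TMM scaling, and the marker sums on counted reads without it. SE is the log2 fold change divided by the square root of F. Intervals are 95%. KRAB boxes were found with pyhmmer 0.12.3 (E-value up to 0.0001, 377 seed windows) and fingers as C-x(2 to 4)-C-x12-H-x(3 to 5)-H/C. Counts were also simulated for this comparison, over 12401 genes of which 12204 were unchanged. Of genes changed by 0.5, 1 and 2 log2 units, 30 of 71, 62 of 72 and 54 of 54 were called. There were 6 calls among the unchanged genes. In the real counts 57.9% of the 12618 genes were called. How these rates depend on the share of changed genes was not tested.

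The named genes are the 10 largest called increases and decreases without overlap, the 5 most abundant members, 3 genes on each side of the mean of 40, and TRIM28, SETDB1 and the 2 largest called changes each way in the co-repressor list. Members, lists and tests were chosen with earlier results of these data known. Libraries of a group differed by more than sampling noise (chi-square over degrees of freedom 1.82 to 5.09), so none was merged. Alternatives were other scalings, DESeq2 1.42.0, limma-voom 3.58.1, other filters, the unstranded column, a fold threshold of 1.2, a replicate block, other mean counts and leaving out each library.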

Additional observations from a re-analysis of the deposited data

Results flagged for a closer look

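In 4 of the 50 groups of 4 libraries looked at, 1 library stood far from the other 3, where chance flags about 1 in 20. All 4 were the highest DMSO library of a gene. ZNF337 had 32.9 CPM in DMSO replicate 4, against 24.4 to 25.7 in the other DMSO libraries, and stayed under every dTAGV1 library. ZNF711 had 21.1 CPM in DMSO replicate 3, against 15.3 to 15.6. ZNF768 had 93.7 CPM in DMSO replicate 1, against 74.9 to 76.0, and ZNF385A had 39.1 CPM in the same library, against 25.6 to 27.2. Calls of these 4 genes held in each fit that left out 1 library.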

How the results depend on the processing

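Each of 25 named ZNF genes kept its direction, where called, in every alternative run, and 448 of 454 values of these genes and NUDT21 stayed on their side of the threshold. The 6 exceptions were ZNF106 against a fold of 1.2 (adjusted p = 0.0545, edgeR's glmTreat) and ZNF518A in 5 alternatives. Of the 73 calls, 72 were shared with RLE scaling, 65 with library size scaling, 68 with DESeq2 and 71 with limma-voom, and 58 held in all 8 fits that left out 1 library. Those 8 fits called 66 to 72 members, 45 to 50 of them higher and 20 to 23 lower, and gave medians of 0.0906 to 0.126.

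The median log2 fold change of the members was 0.0349 with library size scaling, which lowered all genes by a median of 0.07, 0.0867 with no filter, 0.0796 with a filter at a mean of 100 and 0.0795 in counts irrespective of strand. A mean of at least 100 counts, as filter or as the rule for members, left 34 calls (25 higher, 9 lower) among fewer genes. A mean of at least 200 left 15 (10 higher, 5 lower) and a median of 0.0773, beside 2586 of the other genes (1425 higher, 1161 lower). Against a fold of 1.2, 1718 other genes were higher and 9 co-repressor genes lower. In alternatives chosen after seeing the data, 47 calls (12 lower) were left without same-strand overlaps and 14 lower calls with a mean of 40 in each group. The dTAGV1 minus DMSO share of counts was 0.0231 percentage points, and 0.0357 over protein-coding counts alone.

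With the replicate block, 74 members were called (51 higher, 23 lower), including all 73. Deviations of same-numbered libraries correlated at 0.13, -0.02, 0.03 and 0.04. The labels do not say whether same-numbered libraries were paired, and these values cannot settle it. Depth limits small changes: without TMM scaling 1 count was worth 0.233 to 0.290 CPM, and the lowest member count in a library was 16.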
